A study of Homo sapiens with 4 samples.

Results

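The trefoil factor peptides TFF1, TFF2 and TFF3 and the whey acidic protein (WAP) domain inhibitors SLPI and WFDC2 were followed in LNCaP cells that received a vector for CRYM. These 5 genes were taken by name or, where a library lists the locus without a name, by the best overlap with the gene's span on the hg19 genome build. All 5 were found, among 52318 loci listed in all 4 libraries. They were chosen with the difference between the CRYM and the empty vector in view, so that difference is given as a description, without a test.

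LNCaP is an androgen-responsive human prostate cancer line from a lymph node metastasis, and the CRYM gene codes for mu-crystallin, a binder of thyroid hormone in the cytosol. The study asked what changes in these cells when CRYM is raised. There were 2 libraries from cells transfected with a CRYM open reading frame clone and 2 from cells transfected with the matching empty vector. All cells were at passage 22, were kept in RPMI medium with 10% serum, received 2500 ng of plasmid with 12 µL of lipid reagent, and gave RNA at 48 h. The transfection was transient, and RNA came from the whole culture. The share of cells that took up plasmid and the promoter of the vector are not given in the sources used here. The labels call the libraries biological replicates without saying that the cultures were separate, so p-values measure only the spread between these samples, which may be technical. In such bulk RNA, fewer cells that express a gene and less RNA of it per cell cannot be told apart.

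Trefoil peptides are small secreted proteins whose loops are held together by disulfide bonds between cysteines. Epithelia release them with mucins, and they are known for protecting and repairing mucosal surfaces. WAP domains are likewise compact secreted modules packed around disulfide bonds, and several of them block serine proteases. TFF1 is known as an oestrogen-induced gene of breast cancer cells and as a gastric peptide, TFF2 as a peptide of gastric mucous neck cells, and TFF3 as the peptide of intestinal goblet cells. SLPI inhibits neutrophil elastase and cathepsin G at mucosal surfaces, and WFDC2, also called HE4, is a serum marker of ovarian cancer.

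The coding sequence around the cysteine pattern is shown for the 3 genes that gave measurable levels, because the cysteine pattern is what defines each family. The sequences are from GENCODE 29 transcripts on GRCh38, on the coding strand, from the first to the last cysteine codon of the pattern, and capitals mark the cysteine codons.
TFF1, codons 31 to 68: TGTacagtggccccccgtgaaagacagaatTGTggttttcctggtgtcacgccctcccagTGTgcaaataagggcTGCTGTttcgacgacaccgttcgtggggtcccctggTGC
TFF3, codons 46 to 83: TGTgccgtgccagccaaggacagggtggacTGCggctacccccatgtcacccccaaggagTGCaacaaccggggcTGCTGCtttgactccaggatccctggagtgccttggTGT
SLPI, first WAP domain, codons 35 to 72: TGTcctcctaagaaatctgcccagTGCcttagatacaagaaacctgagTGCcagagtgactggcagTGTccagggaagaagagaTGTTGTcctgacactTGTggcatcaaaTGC
SLPI, second WAP domain, codons 89 to 126: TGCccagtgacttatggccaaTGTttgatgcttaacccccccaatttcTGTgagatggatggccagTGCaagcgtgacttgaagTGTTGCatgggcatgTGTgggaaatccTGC
The trefoil stretches of TFF1 and TFF3 are both 114 bases long with 6 cysteine codons, and 59.6% of their bases are identical. Their longest shared run is 9 bases within these stretches and 10 bases over the whole transcripts. Each WAP stretch of SLPI carries 8 cysteine codons in 114 bases, and 39.5% of bases are identical between them. TFF2 holds 2 trefoil patterns and WFDC2 holds 2 WAP patterns. Among the trefoil transcripts the longest shared run was 15 bases, between TFF1 and TFF2, and between SLPI and WFDC2 it was 11 bases, against a read length of 50 bp. None of the 502 windows of 50 bases in the TFF1 transcript, 688 in TFF2, 1060 in TFF3, 547 in SLPI and 565 in WFDC2 occurred in a GENCODE 29 transcript of another gene. Reads that match these transcripts exactly could thus be told apart among the annotated transcripts. Windows with mismatches, further transcripts of the same genes and the rest of the genome were not searched.

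The vector was checked first. The CRYM locus (hg19 chromosome 16, 21250195 to 21314404) stood at 1.17 and 0.977 FPKM in empty vector 1 and 2, against 65.3 in CRYM 1 and 72.5 in CRYM 2, a mean 64.1-fold higher. FPKM is the number of fragments per kilobase of transcript, scaled to the mapped fragments of the library, so levels can be set beside each other between genes. The files give no total counts. The depth of the libraries relative to empty vector 1, read from the width of the deposited intervals, was 1.15 in empty vector 2, 0.841 in CRYM 1 and 1.07 in CRYM 2. Of 10091 loci tested with limma over log2(FPKM + 1), 15.7% were called higher and 17.7% lower at an adjusted p under 0.05, 33.3% in all. With any 1 of the 4 libraries left out, limma called 0 loci, while 3627 to 3815 loci had an unadjusted p under 0.05. The luminal prostate markers KRT18, HOXB13 and FOLH1 were above 100 FPKM in every library, and all 4 basal and all 5 neuroendocrine markers found were under 1 FPKM in every library.

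In the empty vector libraries SLPI was the most abundant of the 5 genes, followed by TFF3 and TFF1, with WFDC2 and TFF2 near 0. In the CRYM libraries TFF3 stood above SLPI. TFF1 and TFF3 were higher and SLPI was lower in both CRYM libraries than in both empty vector libraries. The values of the groups did not overlap for TFF1, TFF3, SLPI and WFDC2, that is for 4 of 5 genes. Over all tested loci the groups did not overlap for 72.2%, with 37% higher and 35.3% lower in the CRYM libraries, and since the genes were chosen on this difference nothing is read from their count.

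**Figure D1:**
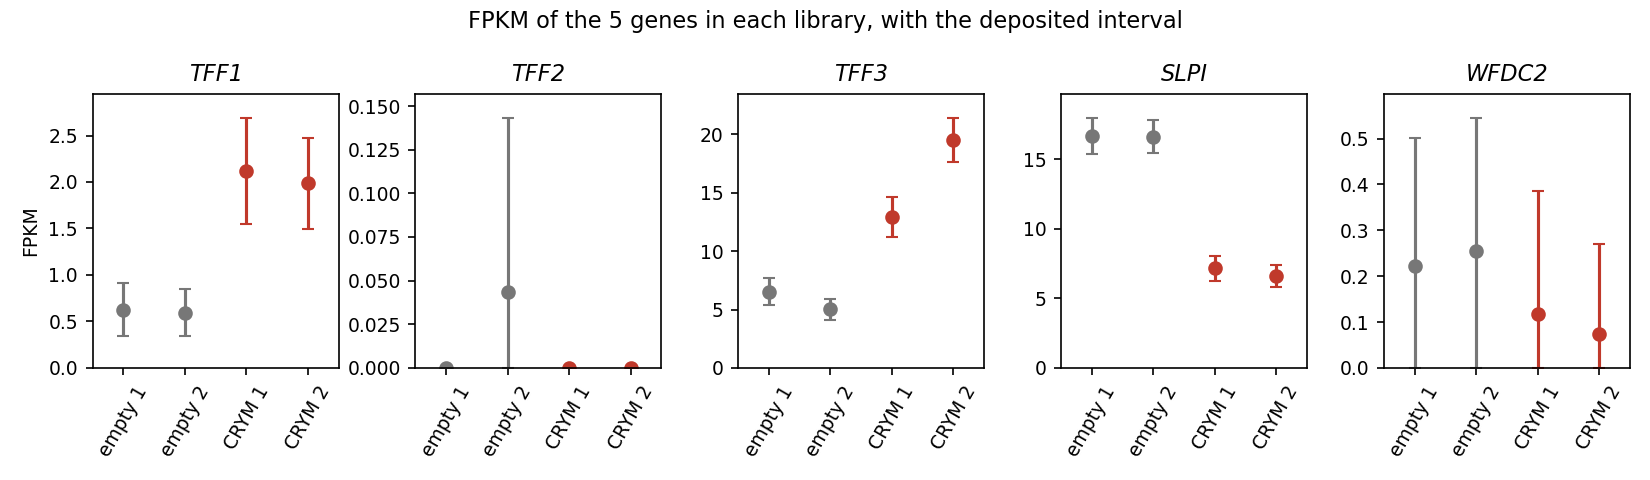
FPKM (vertical axis, a scale of its own in each panel) of the 5 genes in the 2 empty vector libraries (grey) and the 2 CRYM libraries (red). Points are the deposited values and bars the deposited intervals, and the bars of the groups lie apart for TFF1, TFF3 and SLPI but share most of their range for WFDC2.

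TFF1 lies on the minus strand of hg19 chromosome 21 at 43782391 to 43786703. Its FPKM was 0.628 in empty vector 1, 0.592 in empty vector 2, 2.12 in CRYM 1 and 1.99 in CRYM 2. Both CRYM libraries were high and nearly equal, and the lower of them was 3.17 times the higher empty vector library. The means were 0.610 ± 0.0253 (SD, n = 2) and 2.05 ± 0.0926 (SD, n = 2), a 3.37-fold difference, or 0.92 on the log2(FPKM + 1) scale with a standard error (SE) of 0.0668. The smaller size on that scale comes from the added 1, which weighs heavily at this level. This SE and those below come from the limma fit, which draws the variance of each locus toward the trend over all tested loci. TFF1 passed the filter for testing, which asks for 2 or more libraries with an FPKM of 1 or more, only through the CRYM libraries. The deposited intervals ran from 0.347 to 0.908 and from 0.340 to 0.844 in the empty vector libraries and from 1.55 to 2.68 and from 1.5 to 2.48 in the CRYM libraries. The intervals of one group did not reach those of the other.

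The width of each deposited interval gives an implied number of fragments, the number whose counting error alone would make an interval of that width. For TFF1 these were 20, 22.0, 56.1 and 66.1 in the order empty vector 1, empty vector 2, CRYM 1 and CRYM 2. TFF1 thus rested on few fragments in every library. Brought to equal depth, the implied fragments were 3.28 times as many in the CRYM libraries, close to the 3.37-fold difference in FPKM. Implied fragments and relative depth are both computed from FPKM and its interval. Here and for the genes below, their closeness to FPKM is thus not a second measurement.

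TFF3 lies on the minus strand at 43731777 to 43735761 of the same chromosome. It was listed by name in 3 libraries and found by position in empty vector 2. Its FPKM was 6.54 and 5.02 in empty vector 1 and 2, and 12.9 and 19.5 in CRYM 1 and 2. Both CRYM libraries were above both empty vector libraries, and the nearest values of the groups, CRYM 1 and empty vector 1, were 1.98-fold apart. The means were 5.78 ± 1.08 (SD, n = 2) and 16.2 ± 4.63 (SD, n = 2), a 2.81-fold difference and 1.33 (SE 0.261) on the log2(FPKM + 1) scale.

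TFF3 was the least even of the tested genes of the set. CRYM 2 was 1.51 times CRYM 1, and their deposited intervals, 11.3 to 14.6 and 17.6 to 21.4, did not meet. The interval of empty vector 1 was 5.41 to 7.67 and that of empty vector 2 was 4.12 to 5.91, which overlapped. The SE of TFF3 was larger than that of 88.1% of tested loci, against 52.5% for TFF1 and 36.3% for SLPI. The implied fragments were 134, 125, 235 and 432 in the same order as above. At equal depth their ratio between the groups was 2.80, against 2.81 for FPKM. Leaving out 1 library at a time moved the log2 difference between 1.05, without CRYM 2, and 1.61, without CRYM 1.

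TFF2 lies between the other two trefoil genes, at 43766466 to 43771237. Its FPKM was 0.0433 in empty vector 2, with a deposited interval of 0 to 0.143, and it was listed at 0 in the other 3 libraries. That single value corresponded to an implied 0.755 of a fragment, so no difference in TFF2 was detectable at this depth and no fold is given. TFF1 and TFF3 were therefore measured on both sides of a family member that was at or near 0 throughout.

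SLPI lies on the minus strand of hg19 chromosome 20 at 43880880 to 43883205. Its FPKM was 16.7 in empty vector 1, 16.6 in empty vector 2, 7.15 in CRYM 1 and 6.62 in CRYM 2. The CRYM libraries were both low and close to each other, and the nearest values of the groups were 2.32-fold apart. The means were 16.6 ± 0.0255 (SD, n = 2) and 6.88 ± 0.375 (SD, n = 2), 2.42-fold lower with CRYM and -1.16 (SE 0.0503) on the log2(FPKM + 1) scale. The deposited intervals, 15.4 to 17.9 and 15.4 to 17.8 against 6.23 to 8.07 and 5.84 to 7.39, lay far apart. SLPI was the best covered of the 5 genes in the empty vector libraries, with 684 and 770 implied fragments, against 241 and 290 in the CRYM libraries. At equal depth the ratio of implied fragments was 0.412, against 0.414 for FPKM.

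WFDC2 had no name in any of the 4 files and was found by position on chromosome 20 at 44098346 to 44110172, on the plus strand. The overlap with the gene's span, as a share of their union, was 0.958. A further locus listed as AL031663.1 also lay over this span with an overlap of 0.671 and was listed at 0 in all 4 libraries. The FPKM of WFDC2 was 0.222 and 0.254 with the empty vector, against 0.117 and 0.0748 with CRYM. Both CRYM values were below both empty vector values, but the deposited intervals all began at 0 and reached 0.501, 0.544, 0.386 and 0.271. These values corresponded to 2.54, 3.07, 0.755 and 0.580 implied fragments, too few for a fold.

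Among all tested loci the log2 difference of TFF3 was exceeded by 270 loci and lay above 97.3% of them, and that of TFF1 was exceeded by 427 loci and lay above 95.8%. The log2 difference of SLPI had 252 loci below it. The median over all tested loci was 0.01. These positions describe the genes that were picked and carry no test.

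**Figure D2:**
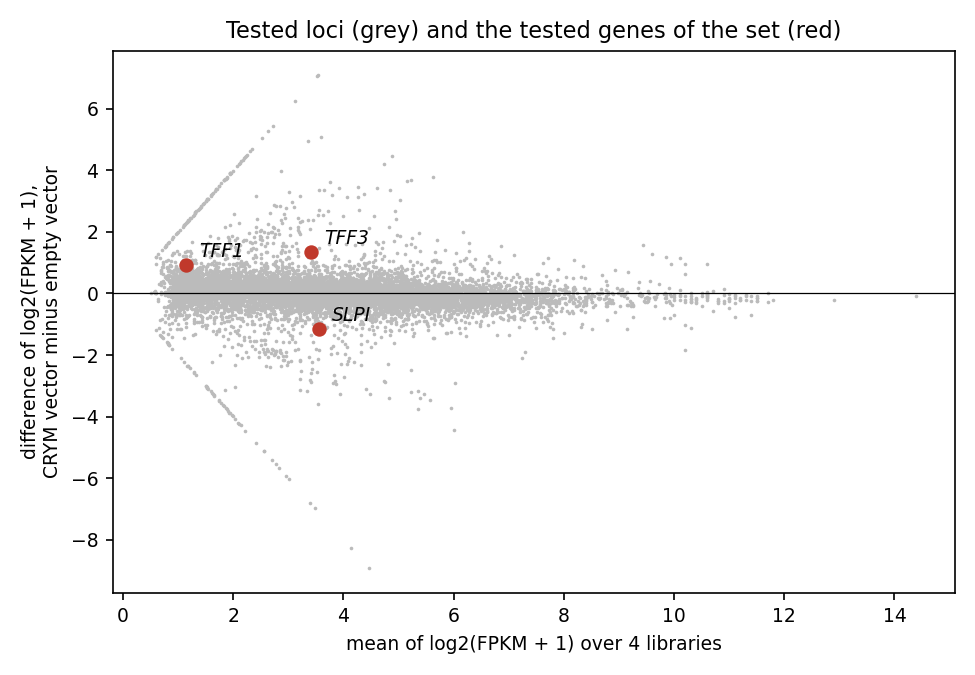
Difference of log2(FPKM + 1), CRYM vector minus empty vector (vertical axis), against the mean of log2(FPKM + 1) over the 4 libraries (horizontal axis) for the 10091 tested loci (grey), with TFF1, TFF3 and SLPI in red. TFF3 and SLPI have similar mean levels and lie on opposite sides of 0, at 1.33 and -1.16, and TFF1 lies at 0.92 near the low end of the levels.

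Ratios between genes within a library do not depend on a scaling factor of the library. TFF3 over SLPI was 0.393 and 0.302 with the empty vector, against 1.81 and 2.95 with CRYM. The order of these genes was thus opposite in the groups, with SLPI above TFF3 in both empty vector libraries and below it in both CRYM libraries. SLPI over TFF1 was 26.5 and 28.1 with the empty vector and 3.38 and 3.33 with CRYM. TFF3 over TFF1 was 10.4 and 8.48 with the empty vector and 6.11 and 9.81 with CRYM, so for the trefoil pair the ratios of the groups overlapped.

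Ranks within a library keep the order of the FPKM values by construction, and are given to place the genes among the tested loci. SLPI stood above 60.5% of tested loci in both empty vector libraries and above 37.8% and 35.6% in CRYM 1 and 2. TFF3 stood above 37.1% and 31.2% of tested loci with the empty vector and above 53.6% and 64.8% with CRYM. TFF1 moved from 4.10% and 3.35% to 15.4% and 14.0% and stayed among the less abundant loci in every library.

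**Figure D3:**
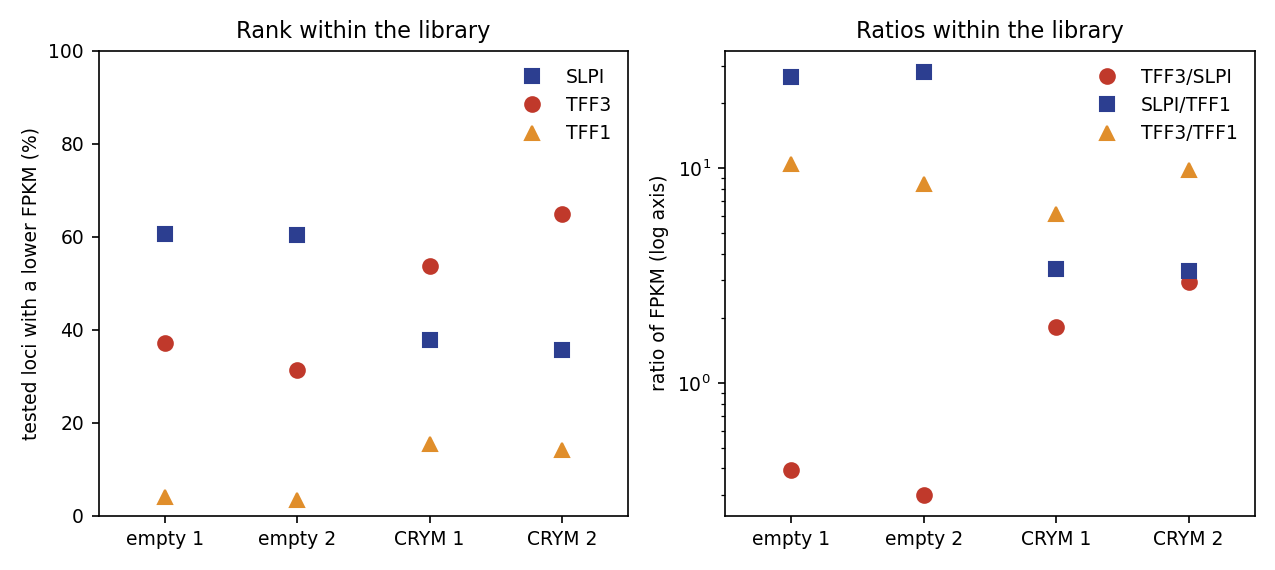
Left, share of tested loci with a lower FPKM (percent) for SLPI, TFF3 and TFF1 in each library. Right, ratios of FPKM between these genes within each library on a log axis; TFF3 over SLPI is below 1 in both empty vector libraries and above 1 in both CRYM libraries, at 1.81 and 2.95.

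Around the trefoil genes the named loci within 100 kb, RNA5SP492, AP001623.1 and RNU6-1149P, were listed at 0 in all 4 libraries. TFF1 and TFF3 were hence the named loci of this stretch with a measurable level. Of 13 genes listed around the cluster, 5 were found and 4 tested, with 0 called higher and 2 lower. RSPH1, a component of the radial spoke of motile cilia, was at 4.27 and 4.38 FPKM with the empty vector and listed at 0 in both CRYM libraries (limma adjusted p = 0.00377). It passed the filter for testing only through the empty vector libraries, so its call is a description. Its locus had no name and was identified by length and named neighbours. A listing at 0 in a whole group was not particular to RSPH1. A1BG-AS1 was at 0 with the empty vector and at 3.54 and 3.45 FPKM with CRYM. Whether the 0 of RSPH1 means loss of its RNA was not tested. PDE9A, a phosphodiesterase that breaks down cyclic GMP, fell from 27.0 to 14.6 FPKM (limma adjusted p = 0.00694). The direction of RSPH1 and PDE9A was opposite to that of TFF1 and TFF3.

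Around SLPI and WFDC2, 19 of 28 listed genes were found and 11 tested, with 3 called higher and 2 lower. SDC4, a cell surface heparan sulfate proteoglycan whose locus starts 70.7 kb from SLPI, rose from 17.1 to 31.6 FPKM (limma adjusted p = 0.00619), opposite to SLPI. UBE2C, a ubiquitin-conjugating enzyme of mitosis, fell from 79.7 to 47.4 FPKM (limma adjusted p = 0.0209). YWHAB, an adaptor of the 14-3-3 family, had 105.3 and 87.8 FPKM (limma adjusted p = 0.0177), and CTSA, a lysosomal protease, 14.8 and 17.0 (limma adjusted p = 0.0339). At equal depth the implied fragments gave ratios of 1.57 for SDC4, 0.765 for UBE2C and 0.979 for YWHAB. The FPKM ratios of SDC4, UBE2C and YWHAB were 1.845, 0.595 and 0.833. PI3, the WAP inhibitor elafin and the nearest family member to SLPI, had FPKM values of 0.786, 0.977, 0.881 and 0.659 in the order empty vector 1, empty vector 2, CRYM 1 and CRYM 2. Its groups overlapped and it did not reach the filter for testing. The semenogelin genes SEMG1 and SEMG2, which lie between PI3 and SLPI and encode the gel proteins of semen, were at most 0.0241 and 0.00605 FPKM. WFDC8 and SPINT3 near WFDC2 reached at most 0.315 and 0.241 FPKM, and RP3-453C12.8 at most 0.0778. RP1-300I2.3, RP1-300I2.2, RP3-461P17.9, RPL5P2, HSPD1P21, RNA5SP485 and CCNB1IP1P2, also within 100 kb, were listed at 0 throughout.

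**Figure D4:**
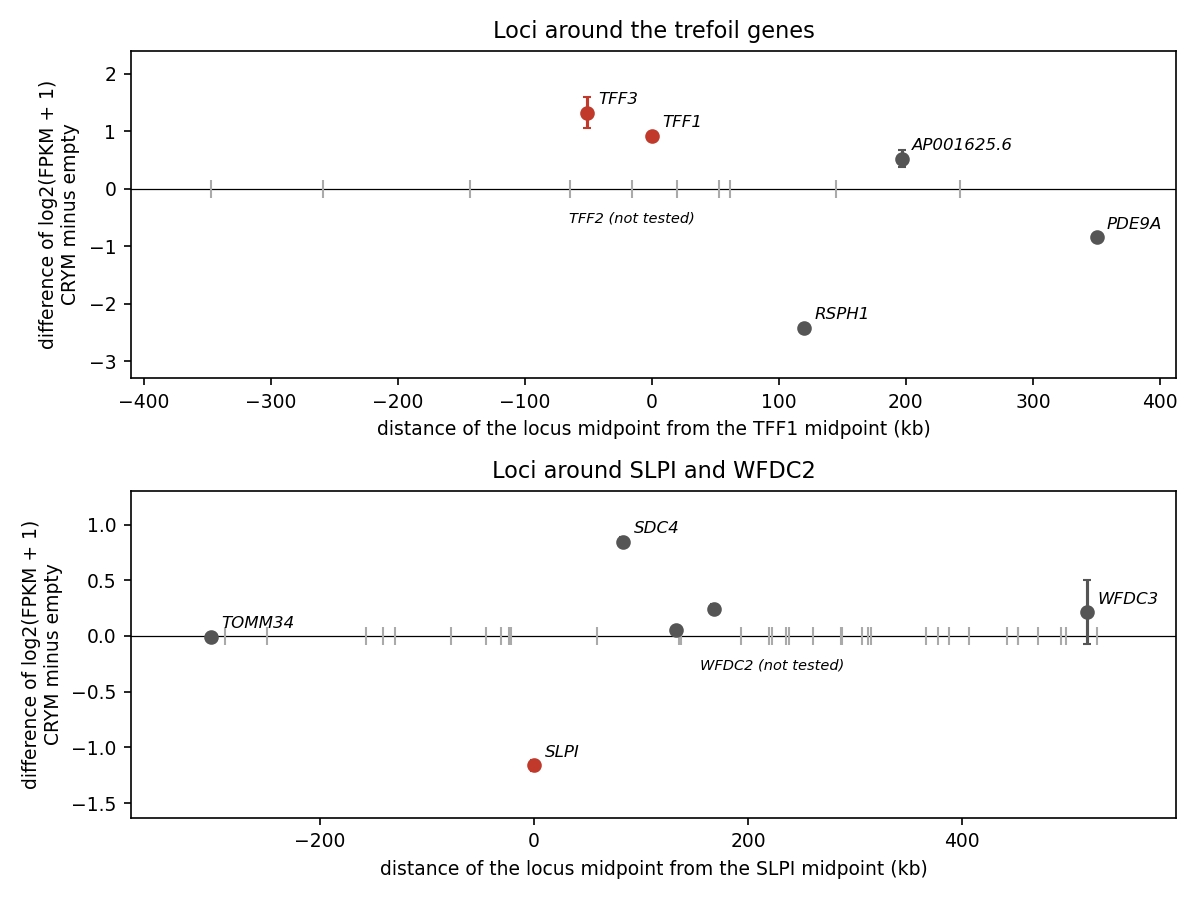
Difference of log2(FPKM + 1), CRYM vector minus empty vector, with its SE (vertical axis), against the distance in kb from TFF1 (top) and from SLPI (bottom). Points are tested loci, with the tested genes of the set in red, and grey ticks at 0 are loci that were not tested; RSPH1 lies below 0 beside the trefoil pair and SDC4 above 0 beside SLPI.

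Of the other WAP domain genes, 13 of 16 were found and 1 was tested. That gene, WFDC3, had 0.452 and 1.00 FPKM with the empty vector and 1.37 and 0.651 with CRYM, and its groups overlapped (limma adjusted p = 0.616). Of the WAP genes found, SLPI was the one with all 4 values above 2 FPKM.

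Mucins and the mucus secretory machinery, with which trefoil peptides are released, gave 15 of 26 genes found, 3 tested, 0 higher and 1 lower. The lower gene was ST6GALNAC1, a sialyltransferase of mucin-type glycans, at 3.18 FPKM with the empty vector and 1.44 with CRYM (limma adjusted p = 0.0128). AGR2, a protein disulfide isomerase that folds mucins, was at 9.93 and 10.1 FPKM and did not pass the test (limma adjusted p = 0.873). The secreted mucins MUC5AC and MUC6 were under 0.07 FPKM in every library. With 3 genes tested, and 15.7% of all tested loci called higher, nothing is read from the count of 0 higher.

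Among reported receptors and binding partners, 6 of 11 genes were found and 4 tested, with 2 higher and 0 lower. ACKR3, an atypical chemokine receptor reported to respond to TFF3, rose from 67.9 to 135.9 FPKM (limma adjusted p = 0.00902), a 2.00-fold difference where its implied fragments at equal depth gave 1.49. F2R, the thrombin receptor of the protease-activated family, rose from 4.58 to 7.91 FPKM (limma adjusted p = 0.00775). CXCR4, a chemokine receptor reported for trefoil peptides, had 3.49 and 5.15 FPKM (limma adjusted p = 0.185), and ANXA2, a reported binding partner of SLPI, had 1.27 and 1.18. The median log2 difference of the 4 was 0.58, against 0.01 over all tested loci.

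Serine proteases, the class of enzyme that SLPI inhibits, gave 14 of 22 genes found, 5 tested, 1 higher and 3 lower, with a median log2 difference of -1.11. Over all tested loci 17.7% were called lower. The genes of neutrophil elastase (ELANE, at most 0.108 FPKM) and cathepsin G (CTSG, 0 throughout) were not tested, so the count does not cover these targets of SLPI. The 3 lower genes are also on the list of luminal prostate markers. TMPRSS2, a transmembrane protease, was at 311.5 FPKM with the empty vector and 71.7 with CRYM (limma adjusted p = 0.00237). KLK3, which encodes prostate-specific antigen, was at 1907 and 881.9 FPKM (limma adjusted p = 0.00489), and the related kallikrein KLK2 at 370.1 and 135.4 (limma adjusted p = 0.00484). For these abundant genes the implied fragments did not follow the FPKM. Their ratio at equal depth was 0.942 for TMPRSS2, 1.08 for KLK3 and 0.764 for KLK2, where FPKM gave 0.230, 0.463 and 0.366, and the cause was not tested. For SLPI the corresponding ratios were 0.412 and 0.414. PRSS23, a secreted protease, rose from 4.55 to 6.44 FPKM (limma adjusted p = 0.0164).

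Other protease inhibitors gave 20 of 27 genes found, 9 tested, 5 higher and 1 lower, with a median log2 difference of 0.67, on the opposite side of 0 from SLPI. TIMP2, an inhibitor of matrix metalloproteases, rose from 15.6 to 27.6 FPKM (limma adjusted p = 0.00496), a ratio of 1.77 where its implied fragments at equal depth gave 1.38. SERPINB5, or maspin, rose from 1.74 to 3.47 (limma adjusted p = 0.0115), and SERPINH1, a collagen chaperone of the serpin fold, from 0.461 to 1.37 (limma adjusted p = 0.0186). Like TFF1, SERPINH1 passed the filter for testing only through the CRYM libraries, so its call is a description. SERPINI1, or neuroserpin, rose from 1.80 to 3.44 FPKM (limma adjusted p = 0.0128). The lower one was SERPINB6, an intracellular serpin, at 132.7 and 105.7 FPKM (limma adjusted p = 0.0176). Among secreted host defence proteins, which SLPI is also counted with, 15 of 18 were found, 2 tested, 1 called higher and 0 lower; S100A9, a calcium-binding protein of inflamed epithelia, was at 2.88 and 3.72 FPKM (limma adjusted p = 0.0479).

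Transcription factors reported at trefoil or WAP genes gave 13 of 23 found, 8 tested, 1 higher and 4 lower, with a median log2 difference of -0.22. KLF4, an epithelial zinc finger factor, fell from 12.1 to 4.11 FPKM (limma adjusted p = 0.0113). SPDEF, an ETS factor of goblet and luminal prostate cells, had 85.7 and 47.4 FPKM (limma adjusted p = 0.00517), and ELF3, an epithelial ETS factor, 30.5 and 25.04 (limma adjusted p = 0.0244). At equal depth their implied fragments gave a ratio of 0.445 for KLF4 but 0.984 for SPDEF and 1.02 for ELF3. NFKB1, a subunit of NF-kappa B, rose from 9.23 to 15.7 FPKM (limma adjusted p = 0.0105). Among oestrogen-responsive genes, listed because TFF1 is one, 8 of 18 were found and 3 tested, with 2 higher and 0 lower. CA12, a carbonic anhydrase, had 5.30 and 7.79 FPKM (limma adjusted p = 0.0171) and HSPB8, a small heat shock protein, 1.12 and 1.75 (limma adjusted p = 0.0436). STC2, a secreted glycoprotein, had 91.1 and 39.2 FPKM and did not pass the test (limma adjusted p = 0.127). Its implied fragments at equal depth gave a ratio of 1.31, where FPKM gave 0.43.

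**Figure D5:**
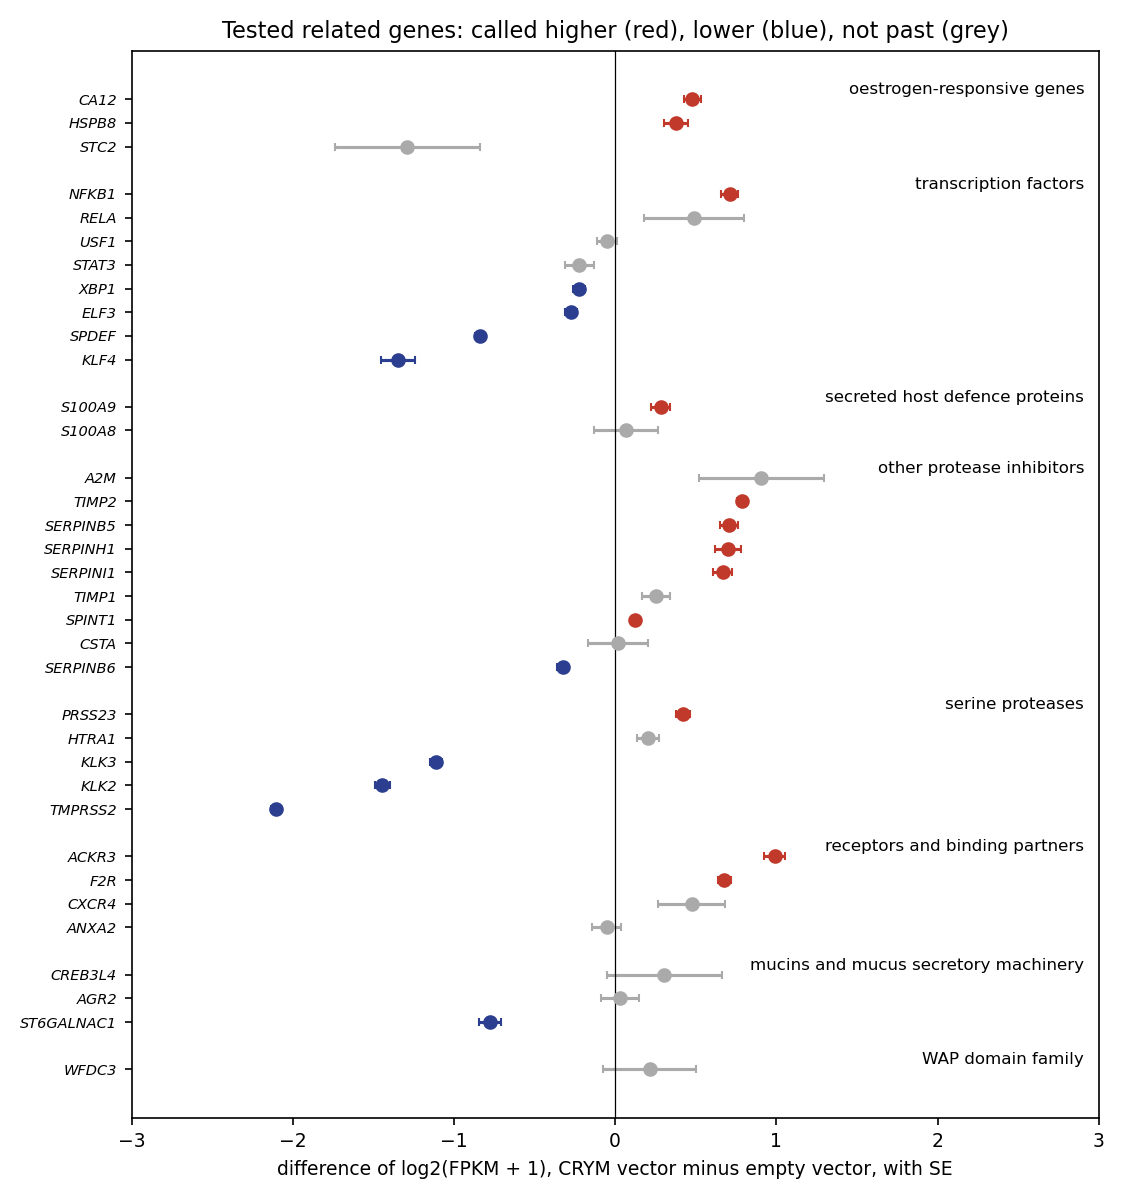
Difference of log2(FPKM + 1), CRYM vector minus empty vector, with its SE (horizontal axis) for the tested genes of the related lists (vertical axis, grouped by list). Red genes were called higher, blue genes lower and grey genes did not pass; the serine proteases hold 3 blue genes and the other protease inhibitors 5 red ones.

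Counted once each, the related lists held 201 genes, of which 50 were tested, with 15 higher, 13 lower and 22 that did not pass. Over all tested loci 15.7% were called higher and 17.7% lower, the background for these counts and for those of each list. The median log2 difference of the tested ones was 0.06. Scaling every library to the same total FPKM moved the log2 differences of the tested loci by a median of -0.55 and changed the listed calls to 3 higher and 27 lower. Under that scaling ACKR3, SERPINH1 and SDC4 were still called higher. F2R, PRSS23, SERPINB5, SERPINI1, TIMP2, S100A9, NFKB1, CA12 and HSPB8 were no longer called, and the log2 difference of PRSS23, S100A9 and CA12 changed sign to -0.09, -0.18 and -0.04. TFF1 and TFF3 were still higher, by 0.61 and 0.79 on the log2 scale, and SLPI was lower, at -1.71. Of the genes named above, SERPINB6, S100A9, HSPB8 and YWHAB were not called after quantile normalization, HSPB8 also not with a pseudocount of 0.1, and SERPINH1, S100A9, ELF3, HSPB8 and CTSA were not called without the filter on low FPKM. With any 1 of the 4 libraries left out, limma called 0 of the listed genes.

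Markers of gastric and intestinal epithelium, where trefoil peptides are typical products, were low apart from 2 genes. Of 8 markers found, 6 were under 1 FPKM in every library, and GKN1 and GKN2, gastric surface proteins, were listed at 0. The summed level of the list, which includes TFF2, was 9.06 and 8.56 FPKM with the empty vector and 2.897 and 2.995 with CRYM, the opposite direction to TFF1 and TFF3. PGC, the gastric protease precursor pepsinogen C, was at 6.06 and 5.19 FPKM with the empty vector, most of the sum there, and at 0.380 and 0.432 with CRYM (13.8-fold lower in the mean, limma adjusted p = 0.00593). PGC passed the filter for testing only through the empty vector libraries, so its call is a description. VIL1, a brush border protein, was at 2.92 and 3.22 FPKM with the empty vector and at 2.45 and 2.50 with CRYM, most of the sum there (limma adjusted p = 0.089). The summed luminal prostate markers, 7 found, were 3271 and 3184 FPKM with the empty vector and 1846 and 1899 with CRYM. Of these 7 markers 2 were called higher, 4 lower and 1 did not pass. KLK3, KLK2, TMPRSS2 and HOXB13 were the lower ones. FOLH1, at 218.1 and 313.9 FPKM (limma adjusted p = 0.00796), and STEAP2, at 135.4 and 190.0 (limma adjusted p = 0.0132), were the higher ones, and KRT18, at 157.6 and 167.6, did not pass (limma adjusted p = 0.106). At equal depth the implied fragments gave a ratio of 1.115 for HOXB13, where FPKM gave 0.876, and 1.13 for FOLH1, where FPKM gave 1.44. At the same total FPKM FOLH1 and STEAP2 were not called and KRT18 and VIL1 were called lower; after quantile normalization HOXB13 was not called, KRT18 was called higher and VIL1 lower; and HOXB13 was not called without the filter on low FPKM. The summed fibroblast and endothelial markers, 5 found, were 6.82 and 7.20 FPKM with the empty vector and 9.16 and 9.35 with CRYM. Of them COL1A1, a fibroblast collagen, had means of 3.63 and 5.23 FPKM (limma adjusted p = 0.0773) and VWF, an endothelial clotting protein, 2.05 and 2.14 (limma adjusted p = 0.884). The summed immune markers, 4 found, were 2.78 and 2.63 FPKM with the empty vector and 2.41 and 1.92 with CRYM, and the one above 1 FPKM was HLA-DRA, at 2.35 and 1.76 in the mean (limma adjusted p = 0.131). The part of these marker levels in the differences of TFF1, TFF3 and SLPI was not tested.

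The tested named protein-coding genes whose values over the 4 libraries were most like each gene of the set were found by the Euclidean distance of log2(FPKM + 1), each centred on its own mean, among 799 candidates. For TFF1 they were the actin-binding thymosins TMSB4X (distance 0.0872) and TMSB10 (0.0935) and the keratin KRT20 (0.114). The added 1 shrinks folds at low levels, so likeness on this scale is not likeness in fold. TMSB4X was at 37.3 and 36.9 FPKM with the empty vector and 77.7 and 73.5 with CRYM, a smaller fold than the 3.37 of TFF1. KRT20, known from intestinal and urothelial cells, was at a level close to that of TFF1, with 0.493 and 0.417 FPKM with the empty vector and 1.70 and 1.46 with CRYM. For TFF3 they were the histone genes HIST1H2AE (0.369), HIST1H4E (0.439) and HIST1H1C (0.482), at larger distances than for the other genes of the set. For SLPI they were MYOD1, a factor of muscle identity (0.127), E2F1 (0.154) and FGF21, a metabolic hormone (0.168). FGF21 was at 1.67 and 1.71 FPKM with the empty vector and 0.144 and 0.26 with CRYM, a larger fold than the 2.42 of SLPI. MYOD1 and FGF21 passed the filter for testing only through the empty vector libraries, and KRT20 only through the CRYM libraries. E2F1, a transcription factor of the cell cycle, had 23.9 and 22.7 FPKM with the empty vector and 10.4 and 10.8 with CRYM.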

How the data were processed

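RNA sequencing of 4 LNCaP libraries (2 per group) was made with a stranded mRNA kit and 50 bp single reads, per the labels' protocols. The deposited values are FPKM per locus with an interval and a status, 1 table per library, per the file headers. The submitters' processing notes name Cufflinks 2.2.1, Cuffdiff, Bowtie2 2.2.9 and TopHat2 2.1.1, with no roles, and the builds hg19 and GRCh37. The sources used here do not say whether reads were assigned by strand.

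Libraries were joined by identical position. Loci without a name were identified, by a step added after the data were seen, as the GENCODE 29 gene of the same length between the same named neighbours; among 15259 named loci hidden to check this, 12824 got the right gene, 7 a wrong one and 2428 none, and among the 3710 protein-coding ones 2536, 5 and 1169. Differences were fitted with limma 3.58.1 (R 4.3.3, trend, two-sided, Benjamini-Hochberg over 10091 loci) on log2(FPKM + 1), for loci that reached an FPKM of 1 in 2 or more libraries and had status OK in all 4; 3 of the 5 genes passed. The fit was tested on simulated data. Implied fragments are the square of 2 times FPKM over the distance to the upper bound, and cover counting error only. The genes, lists and naming rule (of each list up to 4 called genes by size or, with none called, the 2 highest; named loci within 100 kb; the 3 nearest patterns) were chosen with earlier results of these data known; SPINT1, SERPINB6, ACOT8, STC2, AGR2, CXCR4, ANXA2, MUC5AC and MUC6 and the marker genes are named outside that rule. RefSeq proteins and promoters were not used here.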

Additional observations from a re-analysis of the deposited data

How the results depend on the processing

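TFF1 and TFF3 kept their direction up and SLPI its direction down under all 11 alternatives tried. The replicate block, the 4 fits without a library and the pseudocount of 0.1 could not turn it, by the balanced design and because the groups do not overlap. Adding up rows and the stricter overlap kept the same row for these genes. Scaling by the median ratio used factors from 0.9986 to 1.002, too close to 1 to turn a direction. For the same total FPKM the factors were 0.814 and 0.772 with the empty vector and 1.23 and 1.18 with CRYM. They lower SLPI further with CRYM, and lay closer together than the nearest values of the groups for TFF1 and TFF3. Quantile normalization keeps the order of loci within a library, where the ranks of these genes did not overlap between the groups. The kept direction is thus no further support. A pseudocount of 0.1 moved the log2 difference to 1.60 for TFF1, -0.26 for TFF2, -1.26 for SLPI and -0.79 for WFDC2. Scaling to the same total FPKM gave 0.61 for TFF1, 0.79 for TFF3, -1.71 for SLPI and -0.27 for WFDC2, and quantile normalization gave 0.75 for TFF1. Leaving out 1 library at a time gave 0.89 to 0.95 for TFF1, 1.05 to 1.61 for TFF3, -1.21 to -1.11 for SLPI, -0.20 to -0.15 for WFDC2 and -0.06 to 0 for TFF2, the last without empty vector 2. Adding up rows within each span, and an overlap of at least 0.7, changed no value. Quantile normalization and the replicate block were not run for TFF2 and WFDC2, which did not pass the filter.

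Over all loci 1582 were called higher and 1783 lower. Without the filter on low FPKM these were 788 and 1083, and at the same total FPKM 297 and 6256. With any 1 library left out limma called 0 loci in either direction, with smallest adjusted p from 0.055 to 0.0712 and 3627 to 3815 loci at an unadjusted p under 0.05. With the replicate number as a block limma also called 0 loci, with 3820 at an unadjusted p under 0.05. The deviations of same-numbered libraries correlated at 0.0361. The labels do not say whether same-numbered libraries were handled together, and with 2 libraries per group this correlation cannot show it. The listed genes called, 15 higher and 13 lower, became 3 and 27 at the same total FPKM, where SPINT1, CTSA and ACOT8 were called lower instead of higher and PRSS23, S100A9 and CA12 changed sign, and 0 and 0 with the replicate block or with any 1 library left out. Depth limited TFF2 and WFDC2, which rested on at most 3.07 implied fragments in a library, and the interval of TFF1, which rested on 20 to 66.1.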
